A study of Mus musculus with 6 samples.

Results

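The histone genes are the genes that encode the linker histone H1 and the core histones H2A, H2B, H3 and H4. They were taken from the deposited table by symbol (H1f, H2ac, H2bc, H3c and H4c followed by a number, and the older Hist1h to Hist4h names), leaving out symbols that carry the pseudogene ending. The rule found 67 of 29199 genes, with 9 for H1, 18 for H2A, 17 for H2B, 11 for H3 and 12 for H4. Of these, 55 lie on chromosome 13, 9 on chromosome 3, and H1f0, H1f8 and H1f10 elsewhere (GRCm39).

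The libraries were made from regulatory T cells (Treg) recovered from the spleen of B6 mice 3 weeks after they were irradiated with 13 Gy and grafted with bone marrow from C57BL/6 and B6D2F1 donors. The Treg in all 6 libraries were wild-type (WT), came from B6 Foxp3-Thy1.1 mice and had been expanded in culture with IL-2, TGFb 1 and anti-CD3/CD28 beads before transfer. The groups differed in the naive conventional CD4 T cells (Tconv) injected with them, which were WT in 3 libraries and knocked out (KO) for the heterochromatin protein HP1α in 3 libraries. HP1α was deleted with a CMV-cre transgene, which acts in the germline and so in every tissue of the Tconv donors, in a line on a mixed genetic background, and the mice of the study were 6 to 12 weeks old. The comparison asks whether Treg differ with the genotype of the Tconv beside them. Libraries are called WT Tconv 1 to 3 and HP1α KO Tconv 1 to 3 by the replicate numbers of the labels. Whether 1 library is 1 mouse or a pool is not given in the sources used here, so the p-values measure the spread between these libraries.

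Cells make most of their histones while they copy their DNA, because each new genome must be wrapped into nucleosomes. An octamer of H2A, H2B, H3 and H4 forms the nucleosome core, and H1 binds where the DNA enters and leaves it. The mRNAs of these replication-dependent genes are not polyadenylated and end instead in a short stem-loop that is bound by SLBP. Libraries of poly(A) RNA therefore miss most of them, whereas libraries of total RNA, as here, retain them. H1f0 and H1f10 are replication-independent members that are expressed from polyadenylated mRNAs.

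The stem-loop is shown first because it is what the mRNAs of the 5 classes share although the rule did not use it. The letters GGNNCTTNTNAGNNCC were searched on the sense strand after the stop codon, in the annotated transcript or, where it stopped short, within 100 bases of genome. They were found for 61 of 67 histone genes (91%), starting 21 to 58 bases after the stop codon. In annotated transcripts alone they were found for 43 of 67 histone genes (64.2%), against 82 of 16869 other protein-coding genes of the table (0.486%). For those other genes the canonical transcript was searched over its whole length, not only after the stop codon, and the genome was not searched. The 6 histone genes without a match were H1f0, H1f8, H1f10, H2ac14, H2ac22 and H2bc21. H2ac14 has no annotated coding sequence, so it had no stop codon after which to search and could not give a match. In the lines below, which give 1 highly expressed member of each class and 2 rarer forms, capitals mark the 16 bases of the stem-loop (GRCm39 coordinates).
H1f2, chr13:23923495-23923510, plus strand: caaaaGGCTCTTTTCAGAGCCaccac
H2ac15, chr13:21937552-21937567, minus strand: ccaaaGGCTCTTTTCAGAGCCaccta
H2bc3, chr13:23931186-23931201, plus strand: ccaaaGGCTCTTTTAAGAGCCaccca
H3c7, chr13:23729102-23729117, plus strand: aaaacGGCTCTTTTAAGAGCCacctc
H3c8, chr13:23720059-23720074, plus strand: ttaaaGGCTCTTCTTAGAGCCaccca
H4c4, chr13:23765933-23765948, plus strand: ccaaaGGCCCTTTTCAGGGCCactac
H4c2, chr13:23941349-23941364, plus strand: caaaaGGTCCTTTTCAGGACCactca

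The form with the loop of H1f2 was the commonest in H1 (5 of 6 matches), H2A (14 of 16), H2B (12 of 16) and H3 (7 of 11). The 12 H4 genes had 4 forms of their own, of which that of H4c4 was found in 7, and no H4 gene shared a form with another class. The stem of the H4 genes thus carries other base pairs than that of the other classes.

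The histone genes also lay close together. On opposite strands and transcribed away from each other, with at most 500 bases between their annotated starts, stood 12 pairs of an H2A and an H2B gene and no pair of other classes. RefSeq promoters (GRCm38.p6) could be matched by symbol or identifier for 60 of 67 members, and the 250 bases before the start were searched on both strands. The annotated starts of the head-to-head pairs lay 176 to 306 bases apart. The searched bases of partners can therefore be partly the same, and 1 motif can count for both, so the H2A and H2B counts are not independent. CCAAT was present in 17 of 17 H2A, 14 of 14 H2B, 8 of 9 H3, 7 of 9 H1 and 3 of 11 H4 promoters, against 34.5% of 27025 promoters of the table. The octamer ATTTGCAT was found in 6 of 17 H2A and 6 of 14 H2B promoters, in none of the 9 H1, 9 H3 and 11 H4 promoters, and in 1.61% of all promoters. TATAAA was found in 46.7% of the histone promoters and 13% of all. TTTCCCGC or TTTGGCGC, letters bound by E2F, were found in 1 of 60 histone promoters and 1.35% of all. Below are the 150 bases before the start of a gene from a head-to-head pair (H2bc8, 176 bases from the start of H2ac8 in GRCm39), of the H1 gene H1f4, of the most abundant H4 gene, and of the replication-independent H1f0, in which none of these letters occurred. Capitals mark the motifs (GRCm38.p6 coordinates).
H2bc8, chr13:23571250-23571399, plus strand: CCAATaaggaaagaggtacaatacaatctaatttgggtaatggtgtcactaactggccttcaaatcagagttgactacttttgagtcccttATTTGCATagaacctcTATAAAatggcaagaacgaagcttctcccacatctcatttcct
H1f4, chr13:23622559-23622708, minus strand: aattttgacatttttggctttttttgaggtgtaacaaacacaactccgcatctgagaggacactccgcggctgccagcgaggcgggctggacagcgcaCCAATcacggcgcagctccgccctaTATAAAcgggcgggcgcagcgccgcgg
H4c4, chr13:23581418-23581567, plus strand: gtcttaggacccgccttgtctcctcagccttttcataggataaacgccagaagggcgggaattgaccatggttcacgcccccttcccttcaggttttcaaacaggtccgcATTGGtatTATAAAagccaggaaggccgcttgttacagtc
H1f0, chr15:79028062-79028211, plus strand: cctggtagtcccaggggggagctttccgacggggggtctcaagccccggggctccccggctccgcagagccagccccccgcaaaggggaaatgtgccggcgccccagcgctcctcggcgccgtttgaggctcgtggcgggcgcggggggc

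The libraries held 87421755 to 119078882 counts and 22573 to 24626 detected genes. WT Tconv 3 stood apart from the other 5 libraries in the markers of other cells. The summed level of 6 erythroid genes was 5596 CPM (counts per 1000000 of the TMM-scaled library total) there and 373.3 to 681 CPM elsewhere, and that of 8 neutrophil precursor genes was 1851 CPM against 41.9 to 223.6 CPM. The 4 macrophage or monocyte genes summed to 178.8 CPM against 12.53 to 46.1 CPM. Lyz2 made up 167.8 CPM of that sum. Csf1r and Adgre1 were also highest in WT Tconv 3, whereas Cd68 was at 4.955 CPM there and 3.834 to 4.729 CPM elsewhere. None of these genes was at 0 throughout. The Treg had been enriched for CD4 and then sorted on CD4 and Thy1.1, among other markers, a gate meant to leave out other cells. The purity of the recovered Treg is not given in the sources used here. HP1α KO Tconv 2 stood apart in another way, since mitochondrially encoded genes took 0.972% of its counts and 2.52% to 2.88% of those of the others. The 6 Treg markers summed to 3764 to 4674 CPM in the 6 libraries. Of these markers, Foxp3, Il2ra, Cd3e and Cd4 were lowest in HP1α KO Tconv 2, and Ctla4 and Ikzf2 were not. Foxp3 was at 153.6 CPM there and at 200.1 to 251.7 CPM in the others. Because WT Tconv 3 and HP1α KO Tconv 2 touch the histone result, the counts of histone genes called are also given without them.

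Histone genes took 0.275%, 0.271% and 0.463% of all counts in WT Tconv 1, 2 and 3, and 0.301%, 0.398% and 0.345% in HP1α KO Tconv 1, 2 and 3. Their summed level was 2756, 2769 and 4714 CPM in Treg with WT Tconv and 3009, 3873 and 3419 CPM in Treg with HP1α KO Tconv. WT Tconv 3 was the highest library and the other WT Tconv libraries were the lowest pair, so the groups overlapped. On average they stood at 3413 ± 1127 CPM with WT Tconv and 3434 ± 432.5 CPM with HP1α KO Tconv (mean ± SD, n = 3 each), and the log2 ratio of these means was 0.01. Without WT Tconv 3 the log2 ratio was 0.31, and then all 3 HP1α KO Tconv libraries lay above both WT Tconv libraries. In bulk libraries, a change in the share of cells that express a gene and a change in RNA per cell cannot be told apart.

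**Figure D1:**
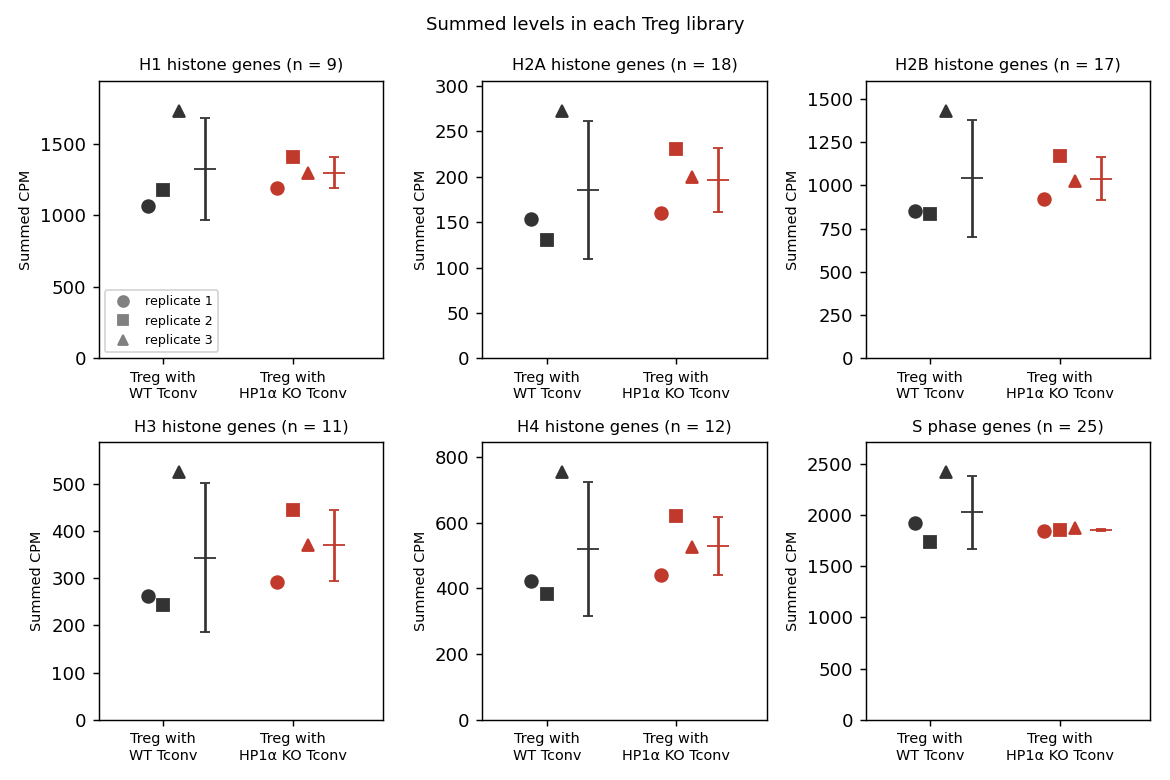
Summed CPM of the histone genes of each class and of 25 S phase genes in each library, with replicates as symbols and the group mean ± SD (n = 3) as bars; each vertical axis starts at 0. WT Tconv 3 (dark triangle) is highest in every panel, and the 3 HP1α KO Tconv libraries spread over the histone classes but lie together at 1846 to 1870 CPM in the S phase panel.

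The linker class H1 contributed most, with 39.3% ± 2.97 of all histone counts in Treg with WT Tconv and 38% ± 1.58 in Treg with HP1α KO Tconv (SD, n = 3). H2B followed with 30.5% ± 0.459 and 30.3% ± 0.339, then H4 with 15% ± 1.1 and 15.4% ± 0.647, H3 with 9.79% ± 1.21 and 10.7% ± 0.887, and H2A with 5.36% ± 0.559 and 5.71% ± 0.337. These shares are of counts, and longer mRNAs yield more counts. In CPM, the H1 sum ran from 1066 to 1733 in the WT Tconv libraries and from 1192 to 1412 in the HP1α KO Tconv libraries. For H3 the values were 261.9, 242.5 and 524.2 CPM against 292.4, 444.3 and 370.3 CPM, and for H4 they were 421.2, 383.1 and 754 CPM against 442.1, 619.1 and 525.7 CPM. The groups overlapped in every class. Log2 ratios of the group means were -0.03 for H1, 0.09 for H2A, -0.00 for H2B, 0.11 for H3 and 0.03 for H4. Without WT Tconv 3 they were 0.21, 0.47, 0.30, 0.55 and 0.40 in the same order.

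In WT Tconv 3 the classes were not raised equally. Relative to the mean of the other WT Tconv libraries, the H1 sum was 1.54 times as high, H2B 1.70, H4 1.87, H2A 1.92 and H3 2.08. HP1α KO Tconv 2 followed a similar order against the mean of the other HP1α KO Tconv libraries, from 1.13 for H1 over 1.20 for H2B and 1.28 for H2A and H4 to 1.34 for H3. No test was made between the classes, whose genes share the same libraries. The 61 genes with a stem-loop match summed to 1.73 times the level of the other WT Tconv libraries in WT Tconv 3, whereas the 6 without a match were at 0.94 times. That value follows H1f0 (0.84 times), which held most of their counts, and both other tested genes without a match were higher in WT Tconv 3 (H2ac22 1.53 and H2bc21 1.42 times). The sums of the 6 were 94.03, 95.75 and 89.27 CPM in the WT Tconv libraries and 103.4, 102.7 and 98.44 CPM in the HP1α KO Tconv libraries.

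Of the 67 histone genes, 62 passed the count filter and were tested with edgeR. The other 5 were H1f6, H1f8, H1f10, H2ac1 and H2ac14. H1f10, a replication-independent linker histone, had 0 to 6 counts per library, and H2ac1 had 0 to 5. H2ac14 had 369 counts in WT Tconv 3, 84 in HP1α KO Tconv 2 and 1 to 8 in the others, and is annotated as a transcribed pseudogene in the later annotation used here. Under edgeR with Benjamini-Hochberg adjustment over 18321 genes, 0 histone genes and 0% of all genes had an adjusted p-value under 0.05. At an unadjusted p-value under 0.05, 0 of 62 histone genes were higher in Treg with HP1α KO Tconv, where 6.98% of all genes were, and 1 was lower, where 7.52% of all genes were. DESeq2 gave 0 histone genes at an adjusted p-value under 0.05, whereas it called 4.35% of the genes for which it gave one. The median log2 fold change was 0.02 over the 62 histone genes and -0.01 over all genes, with 32 above 0 and 30 below 0. Groups that did not overlap were found for 0 histone genes in the higher direction, against 11.5% of all genes, and for 1 in the lower direction, against 11.6%.

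**Figure D2:**
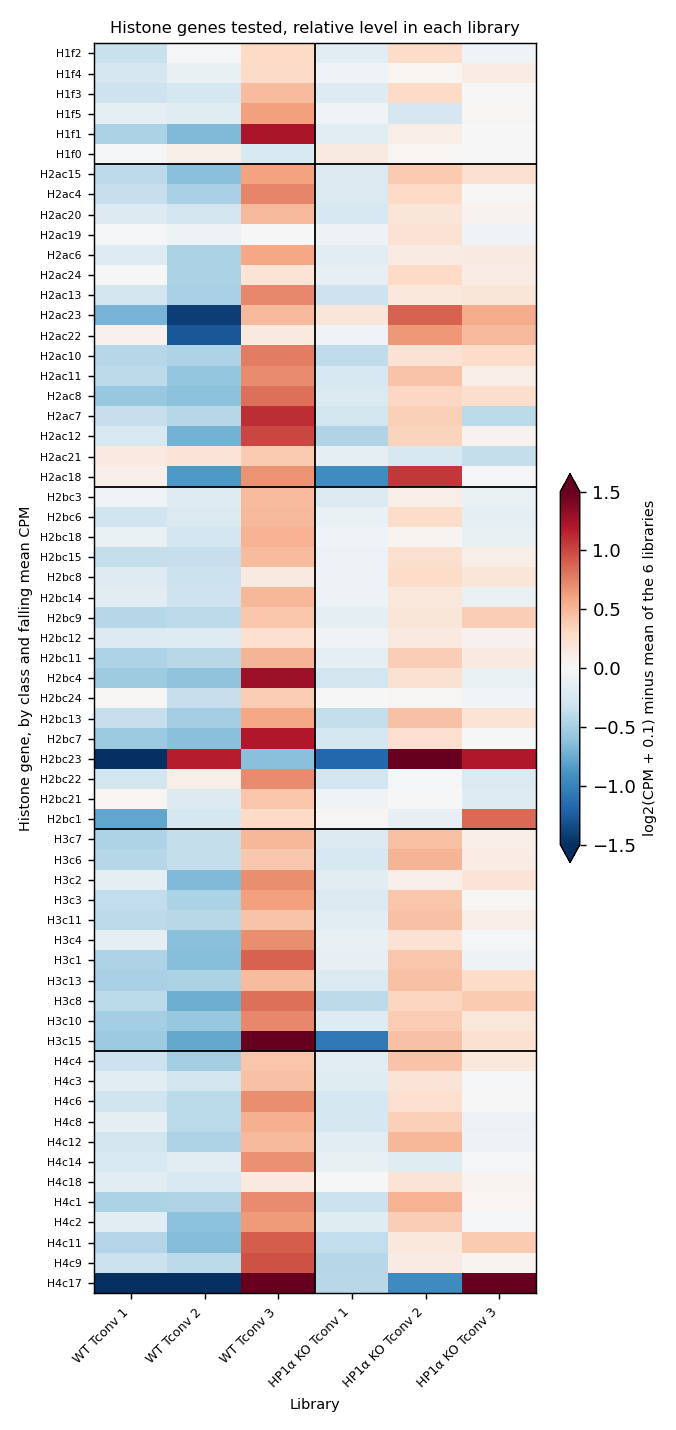
Relative level of the 62 histone genes tested in each library, as log2(CPM + 0.1) minus the mean of the 6 libraries, with genes in rows by class and falling mean CPM and libraries in columns by group. WT Tconv 3 was highest for 48 of 62 genes against 20% of all genes, and shows as a red column, while HP1α KO Tconv 2 was highest for 12, against 21.9% of all genes; values beyond 1.5 in either direction are drawn at the limit colour.

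The gene with the smallest p-value was H2ac21, an H2A gene on chromosome 3 (chr3:96127181-96127624, plus strand). It stood at 3.277, 3.386 and 3.879 CPM in the WT Tconv libraries and at 2.672, 2.472 and 2.265 CPM in the HP1α KO Tconv libraries. All 3 HP1α KO Tconv values were below all WT Tconv values, on 200 to 454 counts. Its log2 fold change of -0.51 (SE 0.155) came with an adjusted p-value of 0.23 in edgeR with Benjamini-Hochberg adjustment and of 0.102 in DESeq2. Without WT Tconv 3 the log2 fold change was -0.43. H2ac20, the neighbour whose annotated 3′ end lies downstream of it on the other strand, was at 21.06, 20 and 33.92 CPM against 20.48, 27.37 and 25.18 CPM, so its groups overlapped.

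Among the linker histones, H1f2 was the most abundant histone gene per length, with a mean of 723.8 CPM per kilobase of coding sequence over the 6 libraries. Its levels were 360.7, 449.3 and 559.6 CPM in the WT Tconv libraries and 406.6, 549 and 436.7 CPM in the HP1α KO Tconv libraries. The groups overlapped, and WT Tconv 3 and HP1α KO Tconv 2 held the top places. H1f4 and H1f3 followed at 447.1 and 303 CPM per kilobase. Their log2 fold changes were both 0.04, with standard errors of 0.136 and 0.261, and that of H1f2 was 0.02 with a standard error of 0.185.

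H1f1 and H1f0 lay at the ends of the H1 class. H1f1 was at 64.34, 56.46 and 209.7 CPM in the WT Tconv libraries and at 79.33, 95.92 and 89.24 CPM in the HP1α KO Tconv libraries. WT Tconv 3 was 3.47 times as high as the mean of the other WT Tconv libraries, and without it the groups did not overlap. H1f0, which accumulates in cells that leave the cycle, was at 81.24, 88.27 and 71.06 CPM against 91.24, 85.2 and 83.57 CPM. It was the only H1 gene tested that was lowest in WT Tconv 3, and its log2 fold change of 0.11 had a standard error of 0.0893.

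H2A and H2B form the dimers that lie on either side of the H3 and H4 tetramer. The most abundant H2A genes per kilobase of coding sequence were H2ac15, H2ac4 and H2ac20, at 74.08, 71.66 and 63.74 CPM per kilobase. H2bc3, H2bc6 and H2bc18 led the H2B class at 435.3, 364.4 and 346.9 CPM per kilobase. H2ac15 was at 21, 17.81 and 41.91 CPM in the WT Tconv libraries and 23.79, 36.12 and 32.71 CPM in the HP1α KO Tconv libraries, and H2bc3 was at 155, 142.2 and 224.9 CPM and 139.9, 173.2 and 151.9 CPM. Both were highest in WT Tconv 3 and overlapped between groups. Members of a head-to-head pair could differ in estimated level, as H2bc8 at 237.1 and its partner H2ac8 at 16.62 CPM per kilobase did. H2ac8 is 99.2% identical in coding sequence to H2ac7, so its level may depend on how reads that fit both were divided.

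H2bc8 had the smallest p-value of the H2B class. It stood at 77.56, 71.17 and 97.23 CPM in the WT Tconv libraries and 83.9, 107.4 and 100.4 CPM in the HP1α KO Tconv libraries. Its groups overlapped only through WT Tconv 3, which lay between the HP1α KO Tconv values. It had a log2 fold change of 0.25 (SE 0.137), with an adjusted p-value of 0.466 (edgeR, Benjamini-Hochberg). H2bc1, a testis histone gene, had 2 to 24 counts per library.

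H3 and H4 form the tetramer at the centre of the nucleosome. H3c7, H3c6 and H3c2 led the H3 class at 176.2, 142.8 and 119.8 CPM per kilobase of coding sequence, and H4c4, H4c3 and H4c6 led the H4 class at 380.8, 288.6 and 255.1. H3c7 was at 50.18, 54.18 and 98.36 CPM in the WT Tconv libraries and at 59.6, 94.74 and 74.38 CPM in the HP1α KO Tconv libraries. H4c4 was at 91.55, 79.5 and 152.2 CPM and at 102.2, 153.7 and 126.9 CPM. In both genes the HP1α KO Tconv values lay above WT Tconv 1 and 2. WT Tconv 3 lay above all of them for H3c7 and within their range for H4c4. Log2 fold changes were 0.17 for H3c7 with a standard error of 0.332 and 0.24 for H4c4 with a standard error of 0.298. H3c13, with the smallest p-value among H3 genes, had a log2 fold change of 0.28 and an adjusted p-value of 0.739 with edgeR and Benjamini-Hochberg adjustment.

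**Figure D3:**
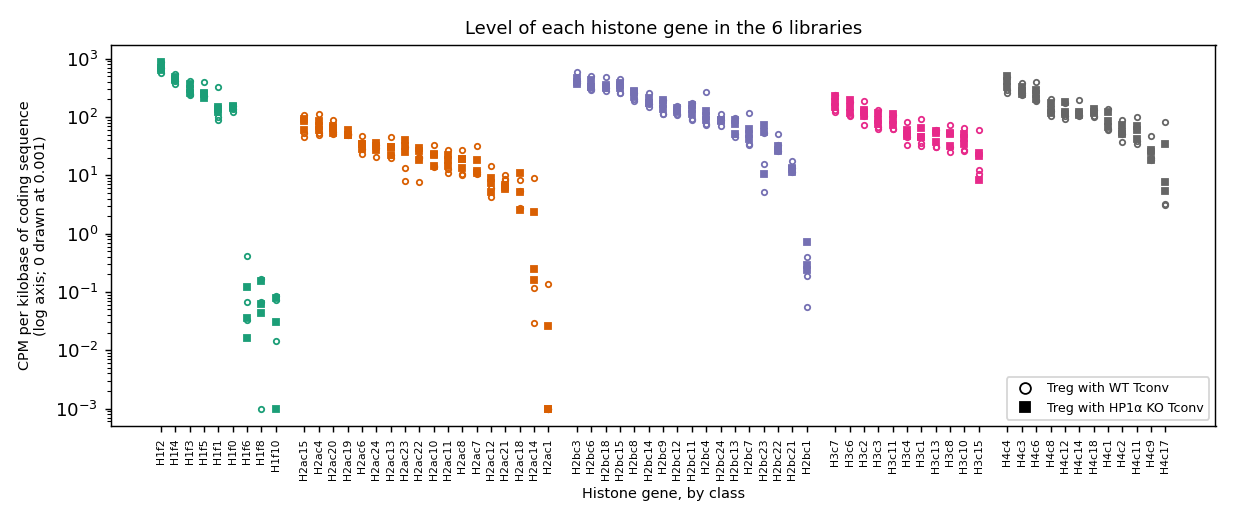
Level of each of the 67 histone genes per kilobase of coding sequence (log axis; a value of 0 is drawn at 0.001), by class and falling mean, with Treg with WT Tconv as open circles and Treg with HP1α KO Tconv as filled squares. H1f2 leads at 723.8 CPM per kilobase on average, and for H2ac14, which has no annotated coding sequence, the exon length was used.

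Near-identical genes limit what can be said of single members, because the authors' estimate divides reads that fit several genes. Coding sequences were 100% identical in 4 pairs, H2ac18 with H2ac19, H2ac23 with H2ac24, H2bc23 with H2bc24, and H4c17 with H4c18. H4c17 received 2.88%, 3.1% and 38.1% of the counts of its pair in the WT Tconv libraries and 6.19%, 3.73% and 22.1% in the HP1α KO Tconv libraries. H2bc23 received 5.45%, 43.9% and 11.9%, and 10.6%, 45% and 39.1%. In both of these pairs the division moved by a larger factor between libraries than the summed level did. The values of single members of the 4 pairs are uncertain.

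Of the 2 largest fitted decreases (H4c17 and H3c15) and the 2 largest increases (H2ac23 and H2bc1), H4c17 and H2ac23 belong to identical pairs. H4c17 had a log2 fold change of -0.87 and H2ac23 one of 0.90, whereas their pairs, counted as 1 gene, had -0.00 and 0.50. The summed level of H2ac23 and H2ac24 was 16.54, 11.33 and 25.16 CPM in the WT Tconv libraries and 20.11, 29.92 and 24.95 CPM in the HP1α KO Tconv libraries. WT Tconv 3 lay within the HP1α KO Tconv range, and the adjusted p-value was 0.539 (edgeR, Benjamini-Hochberg). H3c15, with -0.60, was at 4.953, 4.245 and 24.05 CPM and 3.42, 9.939 and 8.585 CPM, and is 99.8% identical in coding sequence to H3c13. H2bc1 had 0.89 (SE 0.772) on 2 to 24 counts. H1f4 shares 27.4% of its exonic bases with an annotated H2bc6 transcript on the same strand. Larger shares on the same strand were found for H2bc18, at 59.3% with Gm42743, and H2ac18, at 90.3% with Gm20634.

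**Figure D4:**
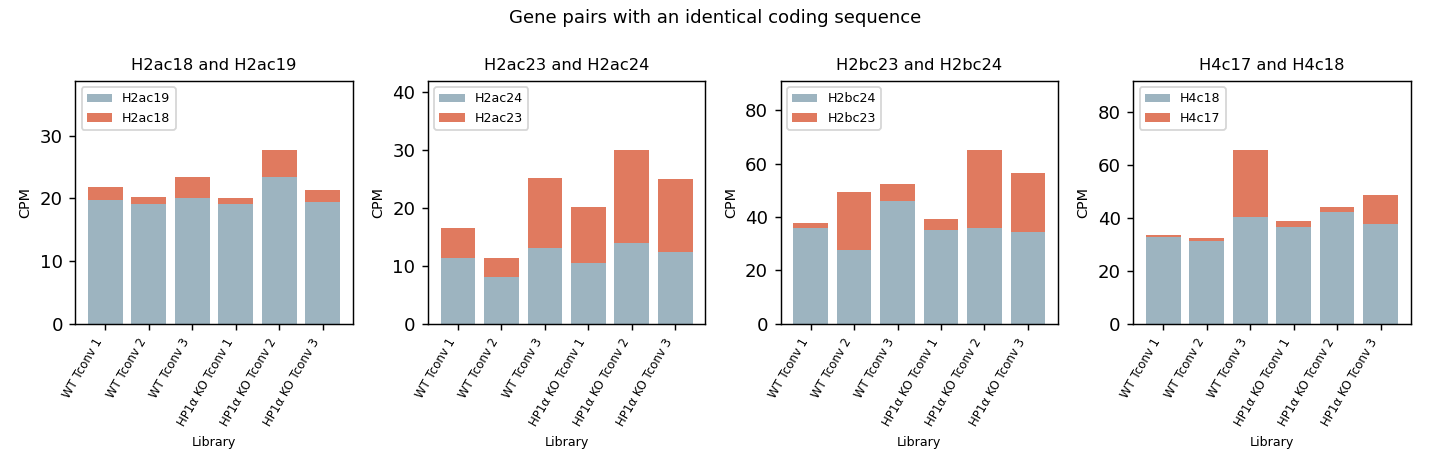
CPM in each library of the 4 gene pairs with an identical coding sequence, stacked, with the first gene of each pair in orange on top of the second in blue. H4c17 takes 38.1% of its pair in WT Tconv 3 and 2.88% in WT Tconv 1, and the division of H2bc23 and H2bc24 shifts between libraries of the same group.

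The pattern across libraries was common to the classes. WT Tconv 3 was the highest of the 6 libraries for 48 of 62 histone genes, against 20% of all genes, with 5 of 6 in H1, 11 of 16 in H2A, 14 of 17 in H2B, 9 of 11 in H3 and 9 of 12 in H4. HP1α KO Tconv 2 was highest for 12, against 21.9%. The median ratio of WT Tconv 3 to the mean of the other WT Tconv libraries was 1.89 over histone genes and 0.99 over all genes. By position, this median was 1.98 for the 52 genes tested on chromosome 13 and 1.65 for the 9 on chromosome 3. H1f0 on chromosome 15 was at 0.84.

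The comparison between groups therefore depended on WT Tconv 3. Without it, edgeR gave a log2 fold change above 0 for 60 of 62 histone genes, where 51.3% of all genes were above 0, and a median of 0.46 against 0.01 over all genes. At an unadjusted p-value under 0.05, 33 histone genes were higher in Treg with HP1α KO Tconv (all genes 5.52%) and 1, H2ac21, was lower (all genes 5.72%). These 33 comprised 3 of 6 H1, 7 of 16 H2A, 9 of 17 H2B, 10 of 11 H3 and 4 of 12 H4 genes. None of the 62 passed with Benjamini-Hochberg adjustment in edgeR, with a smallest adjusted p-value of 0.38. The groups did not overlap for 36 in the higher direction (all genes 16.1%) and 1 in the lower direction (all genes 16.3%). DESeq2 on the same 5 libraries gave 10 histone genes at an adjusted p-value under 0.05 and called 1.35% of the genes for which it gave one. They were H2ac23, H1f1, H3c10, H2bc11, H2bc15, H2bc9, H2ac15, H2ac8, H2bc7 and H3c13, all higher, with log2 fold changes of 0.44 to 0.74 other than 1.60 for H2ac23.

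**Figure D5:**
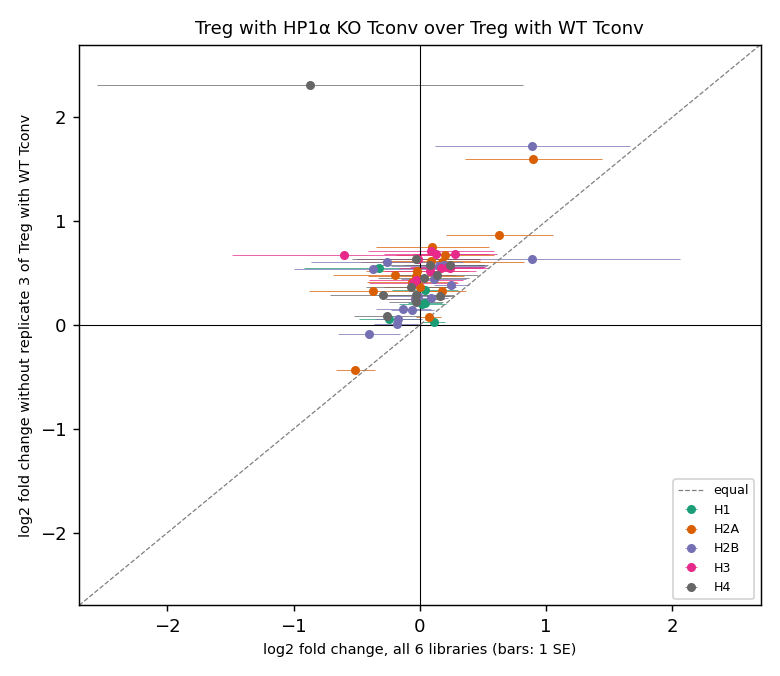
Log2 fold change of each histone gene tested, HP1α KO Tconv over WT Tconv, with all 6 libraries (horizontal axis, bars are 1 standard error) and without WT Tconv 3 (vertical axis), coloured by class. The genes lie on both sides of 0 on the horizontal axis, 32 above and 30 below, and 60 of 62 lie above 0 on the vertical axis.

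In those 5 libraries HP1α KO Tconv 2 was the highest for 45 of 62 histone genes, against 25.2% of all genes. Without both WT Tconv 3 and HP1α KO Tconv 2, 56 of 62 histone genes had a log2 fold change above 0 (all genes 52.5%), with a median of 0.31. At an unadjusted p-value under 0.05, 28 were higher (all genes 9.11%) and 0 were lower (all genes 9.09%), and no adjusted p-value of edgeR with Benjamini-Hochberg adjustment was under 0.0696. Without HP1α KO Tconv 2 alone the median was -0.10 (all genes -0.00), and 20 of 63 were above 0, where 9285 of all 18799 genes tested were. Each library was left out in turn, but WT Tconv 3 was singled out with its high histone level in view, so the direction without it is a description.

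Genes of DNA replication and division were read beside the histone genes. The list of 25 S phase genes, such as the helicase subunits Mcm2 to Mcm7, summed to 1918, 1739 and 2419 CPM in the WT Tconv libraries and 1846, 1852 and 1870 CPM in the HP1α KO Tconv libraries. All 25 were highest in WT Tconv 3, as were 15 of 16 genes of G2 and mitosis. At an unadjusted p-value under 0.05, 0 of 25 and 0 of 16 were higher (all genes 6.98%) and 0 were lower (all genes 7.52%). Without WT Tconv 3, 1 of 25 (Ccne1) and 1 of 16 (Cdc20) were higher at that threshold (all genes 5.52%) and 0 were lower. Without WT Tconv 3 the median log2 fold change was 0.05 for the S phase list and 0.06 for the G2 and mitosis list, against 0.46 for the histone genes. The ratio of the histone sum to the S phase sum was 1.44, 1.59 and 1.95 in the WT Tconv libraries and 1.63, 2.09 and 1.83 in the HP1α KO Tconv libraries. HP1α KO Tconv 2 had the highest ratio although its S phase sum was near that of the other HP1α KO Tconv libraries. The part of the erythroid and neutrophil precursor RNA in the histone level of WT Tconv 3, and that of cycling cells, was not tested.

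Transcription and 3′ end processing of histone mRNA were covered by a list of 20 genes, all tested, of which 1 was higher (all genes 6.98%) and 3 were lower (all genes 7.52%) at an unadjusted p-value under 0.05, and 0 passed adjustment. Only Sympk (higher, all genes 5.52%) and Pou2f1 (lower, all genes 5.72%) were called at that threshold without WT Tconv 3. Slbp, which encodes the stem-loop binding protein, was at 121.1, 121.6 and 153.1 CPM in the WT Tconv libraries and 112, 124.5 and 112.2 CPM in the HP1α KO Tconv libraries, with groups that overlapped. Npat, which encodes a coactivator of histone gene transcription, was at 63.59, 64.83 and 65.96 CPM and 59.71, 58.05 and 54.76 CPM. All HP1α KO Tconv values of Npat were below all WT Tconv values, with a log2 fold change of -0.17, a standard error of 0.0644 and an adjusted p-value of 0.287 with edgeR and Benjamini-Hochberg adjustment. Of the list, Tut7 and Pou2f1 were also lower and Sympk was higher at the unadjusted threshold. Of 18 genes of histone chaperones and nucleosome assembly, Ubn1, Nasp, Rbbp4, Atrx and Nap1l1 were lower and Daxx was higher at that threshold (all genes 7.52% and 6.98%), and 0 passed adjustment. Leaving out WT Tconv 3, 3 were lower (Nasp, Rbbp4 and Atrx, all genes 5.72%) and 0 were higher (all genes 5.52%). Without HP1α KO Tconv 2, 5 were lower and 0 were higher, where 1676 and 1411 of all 18799 genes tested were.

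A list of histone variants and other histone genes outside the symbol rule gave 11 genes in the table, of which 9 were tested. H3f3b, which encodes the H3.3 variant, was at 1053, 1228 and 1197 CPM in the WT Tconv libraries and 925.6, 512.8 and 839.7 CPM in the HP1α KO Tconv libraries. Every HP1α KO Tconv value was below every WT Tconv value, and HP1α KO Tconv 2 was the lowest. Its log2 fold change of -0.61 (SE 0.222) came with an adjusted p-value of 0.300 in edgeR with Benjamini-Hochberg adjustment and of 0.0171 in DESeq2. Its log2 fold change came to -0.39 when HP1α KO Tconv 2 was left out, and the DESeq2 adjusted p-value to 0.138 when WT Tconv 3 was. H3f3a, which encodes the same variant from another locus, was at 377.2, 375.7 and 494.1 CPM and 351.7, 391.6 and 343.9 CPM, with overlapping groups and a log2 fold change of -0.20. H2az1 and H2ax, which encode the variants H2A.Z and H2A.X, had log2 fold changes of 0.06 and -0.15 with standard errors of 0.112 and 0.186. H4f16, an H4 gene that the symbol rule does not take in, was at 17.22, 14.38 and 38.36 CPM and 15.51, 23.55 and 19.37 CPM, and was highest in WT Tconv 3 like most members.

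Other genes with RNAs that lack a poly(A) tail were read beside the histone genes. Neat1 also has a short polyadenylated isoform, which counts per gene do not set apart. The 6 measured were Malat1, Neat1, Rpph1, Terc, Rn7s1 and Rn7s2, and they summed to 14067, 15681 and 13505 CPM in the WT Tconv libraries and 12931, 6960 and 11549 CPM in the HP1α KO Tconv libraries. Malat1 made up most of the sum, with 6610 CPM in HP1α KO Tconv 2 and 10535 to 15209 CPM in the others. HP1α KO Tconv 2, the second highest in the histone sum, was thus lowest in this sum, which follows Malat1. Neat1, Rpph1 and Rn7s2 were also lowest there. Terc and Rn7s1 went the other way, at 4.704 and 78.57 CPM, the highest of the HP1α KO Tconv libraries. Rn7s2 was at 680.3 CPM in HP1α KO Tconv 3 and at 60.73 to 132.3 CPM in the others. Rpph1, the RNA subunit of RNase P, was at 38.26, 31.38 and 43.85 CPM and 25.67, 21.61 and 30.59 CPM, with groups that did not overlap. Its log2 fold change of -0.54 (SE 0.162) came with an adjusted p-value of 0.235 in edgeR with Benjamini-Hochberg adjustment and of 0.0188 in DESeq2. In edgeR it was the 1 gene of the 6 that was lower at an unadjusted p-value under 0.05 (all genes 7.52%). None was higher (all genes 6.98%), and 0 passed adjustment. WT Tconv 3 was highest for Rpph1, Terc and Rn7s1, as for most histone genes, and not for Malat1, Neat1 and Rn7s2. The part of RNA composition in the histone level of HP1α KO Tconv 2 was not tested.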

How the data were processed

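Total RNA of Treg sorted from spleen was sequenced in 6 libraries, 3 per group, prepared with a stranded total RNA kit. The authors trimmed the reads, aligned them to the GRCm39 mouse genome with STAR and estimated expression with Salmon within the nf-core pipeline. What they deposited is a table of estimated counts, 1 row per gene, in whole numbers and without normalization. Whether strand was used in counting is not given in the sources used here.

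The main test was edgeR's quasi-likelihood F-test (version 4.0.16, robust, default legacy method, R version 4.3.3). Libraries were scaled by TMM, filterByExpr left 18321 genes, and the model held only the group. P-values were adjusted by Benjamini-Hochberg over all genes tested, with a threshold of 0.05. Fold changes have Treg with WT Tconv as the denominator, and a standard error (SE) is the size of the log2 fold change divided by the root of F. CPM are counts over the TMM-scaled library total times 1000000. Sums over classes and lists include members under the filter, and have no test. DESeq2 version 1.42.0 and limma version 3.58.1 (voom) were alternatives, beside 2 other normalizations, 2 other filters, 2 other settings of edgeR, the replicate number as a block and each library left out. DESeq2 without WT Tconv 3, edgeR without WT Tconv 3 and HP1α KO Tconv 2, and summing identical genes were added after seeing the data. Scripts were tested on simulated data.

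The histone genes and lists were chosen with earlier results of these data known. Named genes were, in each class, the 3 highest per kilobase and the 1 with the smallest p-value, the 2 largest fitted increases and decreases, members passing adjustment, and H1f0, H1f10, H2ax, H2az1, H3f3a, H3f3b, Slbp and Npat. H1f1, H2ac8, H2ac14, members of identical pairs, list genes called at the unadjusted threshold and those called by DESeq2 were named after their values were seen. Positions, coding lengths, identities (over at least 80% of the coding sequence) and stem-loops were read from a later GENCODE release on GRCm39, and promoters from RefSeq. No per-sample column was left unused.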

Additional observations from a re-analysis of the deposited data

How the results depend on the processing

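With all 6 libraries, no histone gene passed an adjusted p-value of 0.05 under any alternative. DESeq2 without WT Tconv 3, added after seeing the data, gave 10, where it called 1.35% of the genes it adjusted. It gave 38 higher at an unadjusted p-value under 0.05, without a share over all genes beside them. The number higher at that threshold, 0 with all libraries, was 1 with limma-voom and 1 with the replicate number as a block, and ranged from 0 to 33 over the libraries left out (33 without WT Tconv 3, 1 without HP1α KO Tconv 1). It was 28, with 0 lower, without WT Tconv 3 and HP1α KO Tconv 2. The number lower, 1 with all libraries, ranged from 1 to 2 over the libraries left out, with 2 without WT Tconv 1. The counts from limma-voom, and those without HP1α KO Tconv 1 or WT Tconv 1, have no share over all genes beside them. The median log2 fold change ranged from -0.15 to 0.46 and the log2 ratio of the histone sums from -0.12 to 0.31 in the same runs, with WT Tconv 3 giving the highest value of each. Log2 ratios of the class sums ranged from -0.16 to 0.21 for H1, -0.11 to 0.47 for H2A, -0.14 to 0.30 for H2B, -0.09 to 0.55 for H3 and -0.15 to 0.40 for H4. Of 30 named genes fitted, 17 changed sign in at least 1 of 18 alternatives, and 4 (H2ac15, H3c13, H2ac23 and H3f3b) had an adjusted p-value under 0.05 in 1 of them, which was DESeq2 for H3f3b and DESeq2 without WT Tconv 3 for the others. Library totals without TMM scaling moved the median from 0.02 to 0.07.

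Deviations from the group means of libraries with the same replicate number correlated at -0.042, 0.182 and 0.117, so the numbers were not taken to pair the samples. With the replicate block the median was 0.07. There 1 histone gene was higher and 1 lower at the unadjusted threshold, without a share over all genes beside them. Depth limited only the rarest members, since those under the filter other than H2ac14 had at most 30 counts per library, whereas reads shared among near-identical genes limit single members at any depth. The spread between libraries, of which WT Tconv 3 is the main source, sets the precision of the class sums.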
